A study of Mus musculus with 6 samples.

Results

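Complement is a cascade of plasma and locally made proteins that marks cells and microbes for removal and can open pores in membranes. In the classical pathway the proteases C1r and C1s, bound to C1q, cut C4 and C2. All pathways meet at C3, whose fragment C3b binds surfaces, and factor B extends the response through the alternative pathway. Cells that face complement defend themselves with soluble inhibitors such as the C1 inhibitor and with membrane proteins such as CD55, CD46 and CD59. The healthy cornea is known to hold complement components and regulators, and the corneal epithelium carries membrane regulators at its surface.

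The genes described here are 9 complement components and regulators: Serping1, C3, C4b, C1ra, C1s1, Cfb, Cd55, Cd59a and Cd46. They were taken by symbol from the deposited table of 17554 genes, in which all 9 were listed. Bulk RNA-seq had been done on the separated corneal epithelium of 3 control mice, labelled WT, and of 3 mutant mice, labelled Rela-/-, all of the C57BL/6 strain and 2 months old. The mutant mice were Krt14-Cre; Rela f/f, in which a recombinase under the keratin 14 promoter removes floxed Rela, the gene for the RelA subunit of NF-κB. This promoter is active in the corneal epithelium and limbus but also in conjunctiva, skin and other lined surfaces, so the loss of Rela was not limited to the cornea. Whether the controls carried floxed alleles or the recombinase is not given in the sources used here. The comparison asked which transcripts of the corneal epithelium differ between these mutant and control mice. The study reports that mutants of this age already had atrophy of basal cells in the central cornea and a fragile, leaky epithelium. Whether differences in transcripts follow from these changes was not tested.

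Total expected counts per sample, the sum of the reads assigned to genes by RSEM, ranged from 19492942 to 19733834, so that a level of 3 counts equalled 0.152 to 0.154 CPM, the counts scaled to a common library total. This limit covers counting error only. Rela itself had an FPKM (fragments per unit of transcript length and of library size) of 33.4 to 36.5 in the controls and of 4.93 to 5.72 in the mutants, a log2 fold change of -2.75 (standard error, written SE, of 0.085 and adjusted p = 5.5e-07). Log2 fold changes, standard errors and adjusted p-values are from edgeR's quasi-likelihood test and are adjusted over all 12667 genes that passed its filter on low counts. Of the corneal epithelial markers, Krt12 stood at 18871 to 21194 FPKM in the controls and at 17005 to 19245 in the mutants (adjusted p = 0.263). By qPCR the study reports less K12 mRNA in mutants of this age. Krt14, the gene whose promoter drives the recombinase, rose from 178 ± 27 to 1753 ± 394 (SD, n = 3 each, adjusted p = 1.1e-05). Aldh3a1 fell (log2 fold change -0.25, adjusted p = 0.047). Pax6 and Tkt were lower in every mutant than in every control, at adjusted p-values of 0.190 and 0.065. Of the 8 markers, 6 had an adjusted p above 0.05. The samples of each genotype are separate mice.

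Serping1, which encodes the C1 inhibitor, was the complement gene of the 9 with the largest change, with a 13.3-fold higher level in the mutant epithelium. The classical pathway protease gene C1s1 rose 5.54-fold and C3 rose 1.83-fold. No gene of the 9 fell past an adjusted p of 0.05, that is, at or under it. The membrane regulator gene Cd59a was lower in every mutant sample than in every control sample but narrowly missed that threshold, and Cd55 and Cd46 had log2 fold changes of 0.0076 and -0.19. Under the study's own criteria for differential expression, which combine an adjusted p no higher than 0.001 with a change of 2-fold or more, Serping1 was the single gene called, 1 of 8 tested, against 1.37% of all genes tested. With 0.05 as the limit of the adjusted p, 3 of 8 rose and 0 fell, against 13.2% of all genes tested that passed in either direction and 7.82% that rose. The median log2 fold change of the 8 tested genes was 0.41, beside -0.0028 over all genes tested. C4b did not pass the filter on low counts.

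**Figure D1:**
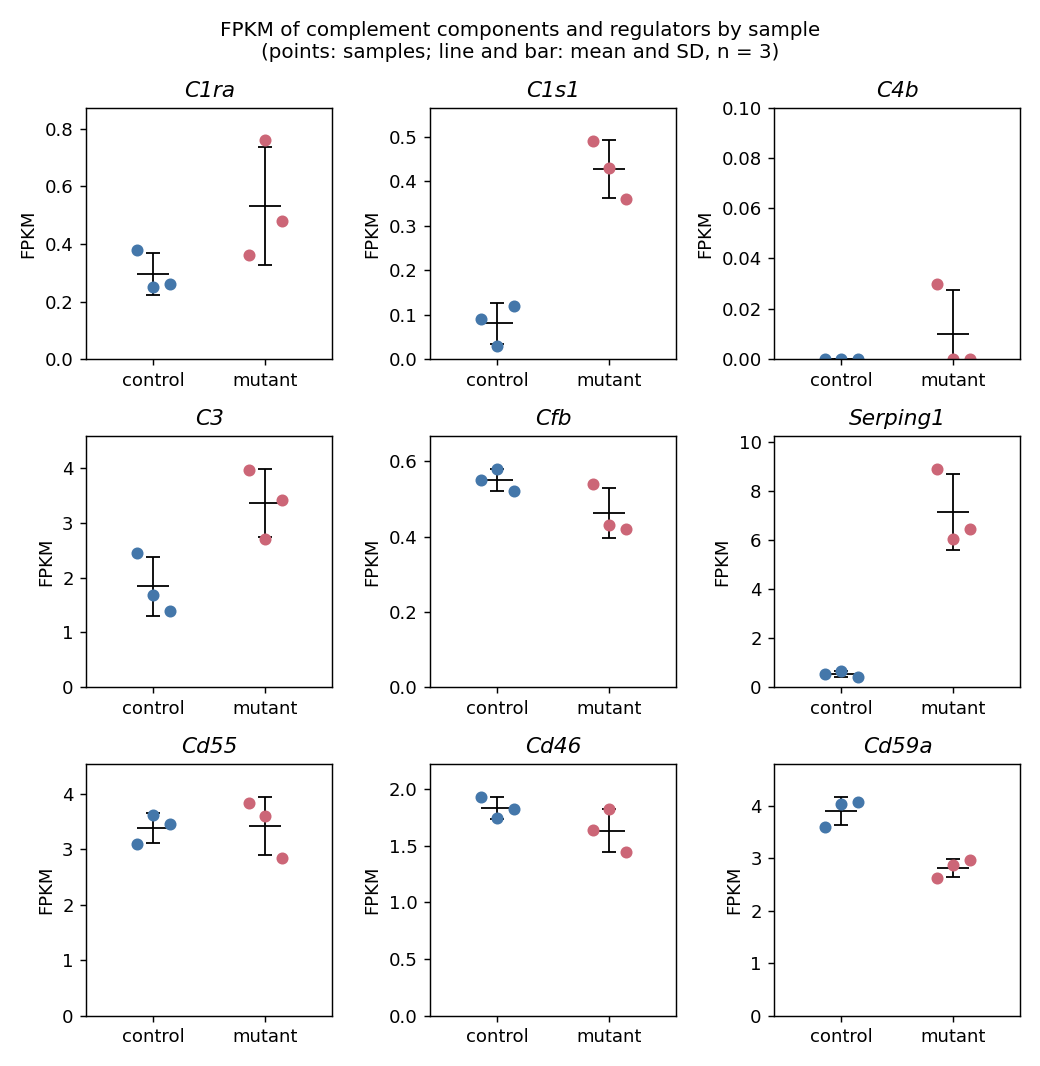
FPKM of the 9 complement genes in each sample, with controls in blue and mutants in red, 3 mice each; the horizontal line is the mean and the bar the SD. Each panel has its own axis from 0, and the groups are fully apart in the panels of C1s1, C3, Serping1 and Cd59a.

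The upstream sequences of C1s1, C3 and Cd59a are shown because their FPKM differed between the groups without overlap and because each holds a match to a searched motif. They are RefSeq sequences of GRCm38.p6, read 5′ to 3′ on the strand of the gene, and capitals mark the match. Bases that belong to a transcript of the gene itself were left out.
C1s1, chr6:124542393-124542609, minus strand: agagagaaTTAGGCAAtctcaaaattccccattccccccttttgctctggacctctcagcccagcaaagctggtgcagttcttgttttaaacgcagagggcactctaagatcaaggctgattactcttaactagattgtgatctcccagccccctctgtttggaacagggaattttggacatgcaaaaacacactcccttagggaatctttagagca
C3, chr17:57228137-57228386, minus strand: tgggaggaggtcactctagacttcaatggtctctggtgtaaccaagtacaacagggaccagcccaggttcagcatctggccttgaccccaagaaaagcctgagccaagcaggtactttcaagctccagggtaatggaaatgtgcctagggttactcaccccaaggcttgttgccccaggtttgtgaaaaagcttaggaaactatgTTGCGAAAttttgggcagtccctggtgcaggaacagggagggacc
Cd59a, chr2:104095551-104095752, plus strand: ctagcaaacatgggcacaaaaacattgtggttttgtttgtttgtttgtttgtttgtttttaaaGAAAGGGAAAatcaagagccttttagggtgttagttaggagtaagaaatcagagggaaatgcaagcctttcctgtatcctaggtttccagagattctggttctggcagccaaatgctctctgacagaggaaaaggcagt

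The 250 bases before each start were searched on both strands for 5 motifs, and 6 of the 9 genes matched the promoter table, with 7 promoters. The motif TTGCNNAA of C/EBP factors, which activate many acute phase genes, occurred in C3 at 45 to 38 bases before the start. In C1s1 it lay on the opposite strand at 242 to 235 bases before the start, and the other C1s1 promoter held no match. This motif occurred in 9.56% of all 32851 promoters. The interferon response motif GAAANNGAAA occurred in Cd59a, at 187 to 178 bases before the start, and in 2.98% of all promoters. The starts used for these C1s1 and Cd59a matches lie inside the gene, so the last 33 and 48 bases of the windows are left out of the sequences shown. None of the 7 promoters held the NF-kB consensus, the STAT motif TTCNNNGAA or the TATA motif TATAAA, which occurred in 3.90%, 7.02% and 12.4% of all promoters. The windows searched for Cd55 and Cd46 lay inside the RefSeq extents of these genes, and 216 of the 250 bases of C1ra belonged to its own gene. For Cd55 and Cd46 the sequence before the whole gene was thus not searched, and for C1ra little of it was. No match overlapped another, and a match is a run of letters that was not tested for binding. Serping1, C4b and Cfb were not in the promoter table.

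The proteases C1r and C1s circulate together as the catalytic part of C1. C1s1 (gene 50908, chromosome 6 of GRCm38 from 124530344 to 124542392) had 5, 1.47 and 7 expected counts in the controls and 28, 24.9 and 21 in the mutants. In FPKM these were 0.09, 0.03 and 0.12 against 0.49, 0.43 and 0.36, so that every mutant lay above every control. FPKM groups without overlap occurred in 32.6% of all genes tested and in 4 of the 8 complement genes tested. The mean FPKM of C1s1 was 0.08 ± 0.046 in the controls and 0.427 ± 0.065 in the mutants (SD, n = 3 each). The fitted log2 fold change was 2.47 (SE 0.467, adjusted p = 0.0080), and it passed the threshold of 0.05 in 13 of 13 alternative analyses. The level stayed low in both genotypes, and 1 control was under the limit of 3 counts.

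C1s1 has a near-identical neighbour. Of its 50-base windows, 21.8% also occurred in transcripts of C1s2, and 13.5% in the overlapping gene Gm16567 on the opposite strand. C1s2 had at most 4.07 counts in any sample. With both copies summed the log2 fold change of C1s1 was 2.35 (SE 0.377, adjusted p = 0.0035).

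C1ra (gene 50909, chromosome 6 from 124512621 to 124523440) lies beside C1s1 and encodes the protease that activates C1s. Its FPKM was 0.38, 0.25 and 0.26 in the controls and 0.36, 0.76 and 0.48 in the mutants. One mutant lay within the range of the controls, and the other two lay above it. The log2 fold change of C1ra was 0.80 (SE 0.350, adjusted p = 0.167), and it missed the threshold in all 13 alternatives. Since 48.0% of its windows also occurred in C1rb, which was not analysed here, the share of these reads that came from C1ra is uncertain.

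Transcripts of C4b, which encodes C4, a substrate of C1s, were low in both genotypes. C4b (gene 12268, chromosome 17 from 34728036 to 34743901) had 0 counts in all 3 controls and in mutants 2 and 3, and 2.91 counts in mutant 1, which is under the limit of 3 counts. Its copy C4a, with which it shared 34.6% of its windows, had 13, 27 and 27 counts in the controls and 16.1, 31 and 29 in the mutants. The summed counts of both copies, nearly all of them from C4a, gave a log2 fold change of 0.23 (SE 0.343, adjusted p = 0.714). No difference in this sum was detectable at this depth, and C4b alone was too low to test.

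C3 (gene 12266, chromosome 17 from 57203967 to 57228136), the central component of all pathways, had FPKM values of 2.44, 1.68 and 1.39 in the controls and of 3.95, 2.71 and 3.42 in the mutants. The groups did not overlap, but the highest control lay close under the lowest mutant. Its mean rose from 1.84 ± 0.54 to 3.36 ± 0.62 (SD, n = 3 each), with a log2 fold change of 0.87 (SE 0.208, adjusted p = 0.024). The call was lost without control 2, at an adjusted p of 0.108 and a log2 fold change of 0.80, and without control 3, at 0.071 and 0.68. The C3 transcripts shared no 50-base window with another gene.

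Cfb (gene 14962), which encodes the factor B protease of the alternative C3 convertase, had FPKM values of 0.55, 0.58 and 0.52 in the controls and of 0.54, 0.43 and 0.42 in the mutants. Its log2 fold change was -0.25 (SE 0.240, adjusted p = 0.545), and the groups overlapped. The deposited row extended on chromosome 17 from 34856374 to 34882114 and thus across the neighbouring gene C2, whereas RefSeq ends Cfb at 34862514. Of the Cfb exon bases, 79.5% overlapped the same-strand gene Gm20547, so the reads of these models cannot be told apart.

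Serping1 (gene 12258, chromosome 2 from 84765072 to 84775444) encodes the serpin that inactivates C1r, C1s and the MASP proteases and also restrains the contact system. The controls held 19, 23 and 15 counts and the mutants 316, 215 and 231. In FPKM these were 0.53, 0.65 and 0.42 in the controls and 8.91, 6.06 and 6.46 in the mutants. The lowest mutant was far above the highest control, and mutant 1 was the highest of the mutants. The mean rose from 0.533 ± 0.115 to 7.14 ± 1.54 (SD, n = 3 each), with a log2 fold change of 3.73 (SE 0.226, adjusted p = 2.2e-05). An exact two-sided permutation test of the FPKM gave p = 0.1, the smallest that 3 against 3 samples can give. By log2 fold change Serping1 stood at place 76 of the 12667 genes tested, counted from the highest, and C1s1 at place 144. Without mutant 1 the log2 fold change of Serping1 was 3.53. The Serping1 transcripts shared no window and no exon base with another gene.

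**Figure D2:**
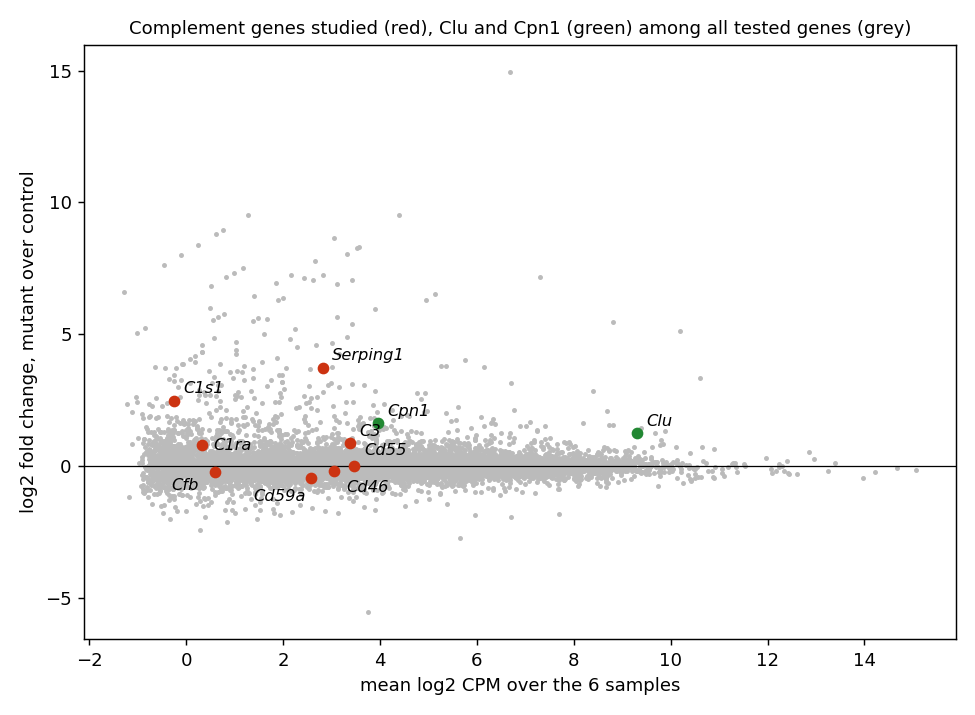
Log2 fold change of each of the 12667 tested genes (grey points) against its mean log2 CPM over the 6 samples. Of the complement genes studied (red), Serping1 at 3.73 and C1s1 at 2.47 stood above most genes, Cd55 at 0.0076 and Cd46 at -0.19 lay close to 0, and Cd59a lay at -0.45, while Clu (green) was by far the most abundant of the labelled genes.

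The measured transcript levels of C1r, C1s and their inhibitor did not move in proportion. The C1s1 part of this comparison rests on 5, 1.47 and 7 control counts, and 48.0% of the C1ra windows also occurred in C1rb. The ratio of the Serping1 FPKM to the summed FPKM of C1ra and C1s1 was 1.13, 2.32 and 1.11 in the controls and 10.5, 5.09 and 7.69 in the mutants. Its mean was 1.52 ± 0.70 and 7.76 ± 2.70 (SD, n = 3 each), a 5.11-fold difference, and the groups did not overlap (exact two-sided permutation p = 0.1). This ratio, and the sum and ratio of the membrane regulators given further on, were chosen after the values of the genes had been seen.

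The membrane regulators stop complement on the cell's own surface. CD55 hastens the decay of C3 convertases, CD46 is a cofactor for the cleavage of C3b, and CD59 blocks the last step of pore assembly. Cd59a (gene 12509, chromosome 2 from 104095801 to 104115410) had FPKM values of 3.59, 4.03 and 4.08 in the controls and of 2.63, 2.87 and 2.96 in the mutants. Each mutant lay below each control, and the means were 3.90 ± 0.27 and 2.82 ± 0.17 (SD, n = 3 each). The log2 fold change of Cd59a was -0.45 (SE 0.136, adjusted p = 0.057). It passed 0.05 in 3 of 13 alternatives: with limma on log2(FPKM + 1) at an adjusted p of 0.033, with limma on log2(FPKM + 0.1) at 0.035, and with its copy Cd59b summed at 0.042 and a log2 fold change of -0.49. Cd59b itself had at most 17.5 counts in any sample.

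Cd55 (gene 13136, chromosome 1 from 130391475 to 130463021) had FPKM values of 3.10, 3.63 and 3.46 in the controls and of 3.84, 3.60 and 2.84 in the mutants. The highest and the lowest of the 6 values both came from mutants. Its log2 fold change was 0.0076 (SE 0.143, adjusted p = 0.980), and it turned to -0.0028 with upper-quartile scaling. The deposited row began at 130391475, inside Cd55b, whereas RefSeq starts Cd55 at 130429798, and 8.0% of the Cd55 windows also occurred in Cd55b, which had at most 7.01 counts in any sample.

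Cd46 (gene 17221, chromosome 1 from 195038971 to 195131585) had FPKM values of 1.93, 1.74 and 1.82 in the controls and of 1.64, 1.82 and 1.44 in the mutants, with overlapping groups. The log2 fold change was -0.19 (SE 0.134, adjusted p = 0.395). RefSeq ends this gene at 195098784, and the deposited row extended on over the locus of the related regulator Cr1l. Antisense to Cd46, A330023F24Rik covered 14.2% of its exon bases.

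The summed FPKM of Cd55, Cd59a and Cd46 was 8.62, 9.40 and 9.36 in the controls and 8.11, 8.29 and 7.24 in the mutants, with every mutant below every control. The means were 9.13 ± 0.44 and 7.88 ± 0.56 (SD, n = 3 each, exact two-sided permutation p = 0.1). The ratio of C3 to this sum was 0.203 ± 0.071 in the controls and 0.429 ± 0.089 in the mutants (SD, n = 3 each), a 2.11-fold difference with the same permutation p of 0.1. This sum leaves out Cr1l and Susd4, more abundant membrane regulators described below. The membrane regulators of the wider list, which hold both, summed to 49.2 to 52.2 FPKM in the controls and to 47.0 to 50.3 in the mutants, with overlap.

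Compared per transcript length, the order of the 9 genes changed between the genotypes. In the controls Cd59a was highest, at a mean FPKM above that of 51.3% of the genes in the table, and the ranges of Cd59a and Cd55 overlapped. C3 and Cd46 followed at 1.84 ± 0.54 and 1.83 ± 0.10 FPKM and did not differ beyond their spread, nor did Cfb and Serping1, at 0.550 ± 0.030 and 0.533 ± 0.115 (SD, n = 3 each). C1ra, C1s1 and C4b were lowest. In the mutants Serping1 was highest, above every sample of the other genes, and the FPKM ranges of Cd55, C3 and Cd59a overlapped below it. C1ra, Cfb and C1s1 lay together at means of 0.533, 0.463 and 0.427 FPKM, with overlapping ranges.

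**Figure D3:**
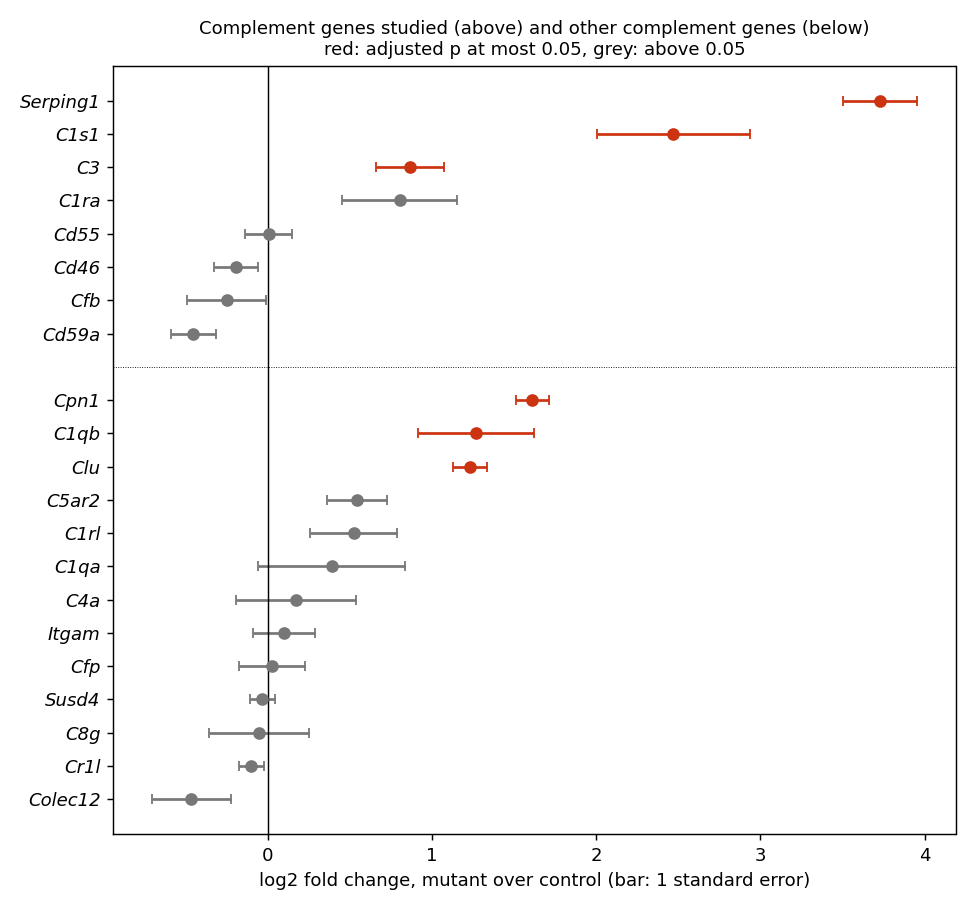
Log2 fold change, mutant over control, of the 8 tested complement genes studied (above the dotted line) and of the 13 tested genes of the wider complement list (below it), with bars of 1 standard error from edgeR. Genes past an adjusted p of 0.05 (red) all lay to the right of 0: Serping1, C1s1, C3, Cpn1, C1qb and Clu.

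A wider list of 47 complement genes comprised recognition proteins, other proteases, terminal components, regulators and receptors. In the table were 38 of them, and 13 passed the filter on low counts. Of these 13, 2 rose under the study's criteria and 3 past an adjusted p of 0.05, and 0 fell at either. Over all genes tested, 1.37% passed the criteria, 13.2% passed 0.05 and 7.82% rose at 0.05. Their median log2 fold change was 0.17. The 25 genes that were too low to test included the serine protease gene Cfd at 0 to 1 counts, Masp1 and Masp2 at 0 to 3.14 counts, C5 (Hc) at 0 to 1 counts and C2 at 3 to 7 counts.

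Both genes called at the stricter thresholds encode soluble regulators. Clu, for clusterin, a chaperone that also blocks assembly of the terminal complex, had FPKM values of 226, 204 and 211 in the controls and of 560, 501 and 438 in the mutants. It had a log2 fold change of 1.23 (SE 0.102, adjusted p = 9.1e-05). Without control 2 its adjusted p was 0.0021 and without control 3 it was 0.0016, so that Clu was then not called at 0.001. Clu stood far above all 9 genes described here in both genotypes. Cpn1, for the catalytic chain of carboxypeptidase N, which trims the anaphylatoxins C3a and C5a, had FPKM values of 4.27, 4.05 and 4.47 against 13.0, 13.8 and 12.5 (log2 fold change 1.61, SE 0.102, adjusted p = 2.4e-05). The transcript of its partner chain, Cpn2, had at most 2.91 counts in any sample.

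C1qb, for a chain of the recognition protein C1q, had 6, 6 and 6 counts in the controls and 17, 12 and 15 in the mutants. The C1qb log2 fold change was 1.27 (SE 0.352, adjusted p = 0.043), which passed the threshold in 4 of 13 alternatives and lost it whenever any 1 sample was left out, at adjusted p-values of 0.070 to 0.134. Its partner C1qa had a log2 fold change of 0.39 (SE 0.447, adjusted p = 0.615), and C1qc, with 2 to 7 counts against 9 to 12, was not tested. Of the membrane regulators, Cr1l, a mouse regulator with the activities of CD46 and CD55, was the most abundant, at 34.1 ± 1.0 FPKM in the controls and 31.99 ± 1.80 in the mutants (SD, n = 3 each). Cr1l had a log2 fold change of -0.10 (SE 0.077, adjusted p = 0.450). Susd4, another membrane regulator, was at 16.0 ± 1.3 and 15.7 ± 0.7 FPKM (SD, n = 3 each), with a log2 fold change of -0.03 (SE 0.079, adjusted p = 0.836), whose sign turned to 0.02 without control 1.

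Several transcription factors are known to act on complement genes. Of 8 listed factors other than Rela, 4 passed an adjusted p of 0.05 and all 4 rose, against 13.2% of all genes tested that passed and 7.82% that rose. Cebpb and Cebpd, which encode C/EBP factors, had log2 fold changes of 0.64 (SE 0.086, adjusted p = 0.0013) and 0.94 (SE 0.15, adjusted p = 0.0033). Stat3 rose by 0.43 on the log2 scale (SE 0.072, adjusted p = 0.0045). Nfkb1, for the p105 and p50 subunits of NF-κB, rose by 0.44 (SE 0.099, adjusted p = 0.017), and lost the threshold without any 1 of the controls, at adjusted p-values of 0.059 to 0.074. Relb, Nfkb2 and Irf1 had log2 fold changes of -0.44, -0.13 and 0.07, with adjusted p-values of 0.178, 0.447 and 0.772. No binding was measured in these samples.

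The genes whose log2 CPM ran most like those of C3 over the 6 samples were Maea, Usp39, Eps15, Riok1 and Rxylt1, with Pearson's r from 0.990 to 0.996. The 6 points are the same libraries for each gene, and the value describes likeness only. These genes had log2 fold changes of 0.18 to 0.75, and none passed an adjusted p of 0.05.

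In bulk samples, more cells of a type and more RNA per cell cannot be told apart, so markers of other cells stand beside these values. Of 9 stromal markers, 3 were tested: Dcn rose (3, 2 and 1 counts against 66, 34 and 14, adjusted p = 0.0051), Pdgfra fell (adjusted p = 0.0050) and Thy1 did not pass (adjusted p = 0.352). Counts of 4 of the 9, Dcn, Col1a1, Col3a1 and Vim, were above every control in every mutant, and those of Pdgfra were below. For comparison, FPKM groups without overlap, in either direction, occurred in 32.6% of all genes tested. This share is not a matched one, as it is from FPKM and from genes past the filter on low counts, which 6 of these 9 markers did not pass. Col1a1 had 1, 1 and 2 counts against 23, 23 and 6, Col3a1 had 1, 0 and 0 against 32, 15 and 6, and Vim had 1, 0 and 2 against 19, 9 and 9. Lum had 0, 1 and 0 counts against 23, 10 and 0, Col1a2 had 5, 0 and 1 against 20, 11 and 1, and Kera had 0 to 2 in every sample.

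The summed FPKM of the 9 stromal markers was 2.61 to 2.99 in the controls, of which Pdgfra made up 2.07 to 2.50, and was 5.53, 3.97 and 2.30 in mutants 1, 2 and 3. Without Pdgfra, a sum chosen after the values were seen, the other 8 summed to 0.35 to 0.59 in the controls and to 4.11, 2.49 and 1.13 in the mutants. Every mutant was thus above every control in this sum, as it was for Serping1, C3 and C1s1.

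Of 9 leukocyte markers, 3 were tested and 1, S100a8, rose (1, 0 and 2 counts against 1858, 349 and 228, adjusted p = 0.0023). Counts of S100a8, Lyz2 and Cd68, 3 of the 9, were above every control in every mutant. Over all genes tested, 32.6% had FPKM groups without overlap, in either direction, a share that again leaves out genes too low to test, as 6 of these 9 were. Lyz2 had 0, 0 and 1 counts against 23.7, 13 and 3.79, and Cd68 had 17.3 to 21.8 FPKM against 22.1 to 24.5 (adjusted p = 0.224). The summed FPKM was 21.4 to 25.8 in the controls and 294, 78.3 and 61.1 in the mutants. Without S100a8, likewise chosen after the values were seen, it was 21.4 to 25.6 against 30.5, 28.9 and 29.1. The pan-leukocyte gene Ptprc had 6, 6 and 1 counts in the controls and 14, 2 and 9 in the mutants, and Adgre1 had 1 to 3 in every sample.

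The vessel markers, 4 in the table and 0 tested, summed to 0.03 to 0.12 FPKM against 0.14 to 0.24. Of 5 conjunctival markers, Krt13 fell (adjusted p = 0.015) and Muc5ac was at 0 to 1 counts, and of 5 epidermal and 3 corneal endothelial markers none passed 0.05. Mutant 1 held the highest stromal and leukocyte sums and the highest Serping1, C3 and C1s1. Between mutants 2 and 3 the order differed. The stromal sum (3.97 and 2.30 FPKM), the leukocyte sum (78.3 and 61.1) and C1s1 (0.43 and 0.36) were higher in mutant 2. Serping1 (6.06 and 6.46 FPKM) and C3 (2.71 and 3.42) were higher in mutant 3. Without mutant 1, the number of genes among the 9 past an adjusted p of 0.05 was again 3. The part of these other cells in the complement values was not tested. By immunostaining, the study reports new vessels and immune cell infiltration in older mutants but not in mutants of the age sampled here. It also places the remodeling of the stroma at a later age.

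**Figure D4:**
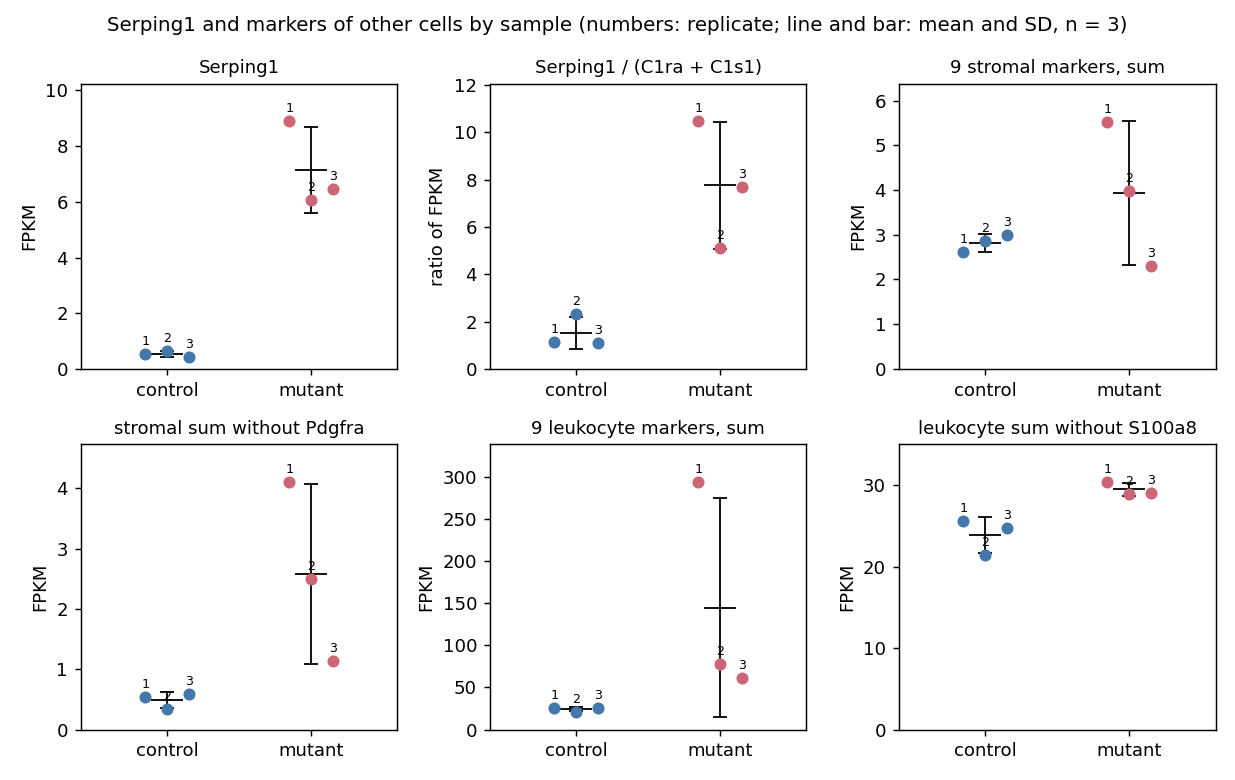
Serping1 FPKM, the ratio of Serping1 to C1ra plus C1s1, and the summed FPKM of stromal and of leukocyte markers in each sample, also without Pdgfra and without S100a8, with the replicate number beside each point and the mean and SD of 3 mice. With all 9 stromal markers the sum is 2.61 to 2.99 FPKM in the controls and 5.53, 3.97 and 2.30 in mutants 1, 2 and 3, so mutant 3 lies below every control. Without Pdgfra, a sum chosen after the values were seen, it is 0.35 to 0.59 FPKM in the controls and 1.13 to 4.11 in the mutants. Serping1 is higher in every mutant than in every control.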

How the data were processed

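Corneal epithelial RNA of 3 control and 3 mutant mice was depleted of rRNA and sequenced as single-end 50-base reads. The authors filtered reads with SOAPnuke, aligned them with Bowtie2 (2.2.5 in the submitters' processing notes) and deposited expected counts and FPKM per gene from RSEM (1.2.12 in the same notes), unpooled. Where a read matched several genes RSEM shared it out, which left 31.5% to 32.2% of the values per sample fractional. Labels and methods differ on the library kit and genome build, and the table's coordinates are those of GRCm38. Deposited fold changes, p-values and q-values, which hold the authors' own comparison, were not used.

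Expected counts were rounded and fitted in edgeR 4.0.16 (R 4.3.3) with TMM scaling, filterByExpr (minimum count 10, minimum total 15) and quasi-likelihood testing of genotype alone. P-values were adjusted by Benjamini-Hochberg over 12667 genes. The fit was tested on simulated data. FPKM, which the authors scaled by transcript length and sample total, was used as deposited, to compare levels between genes and in exact permutation tests. Shared 50-base windows and exon overlaps were counted in GENCODE M21, and promoters were taken from RefSeq GRCm38.p6.

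The results were recomputed with upper-quartile scaling, DESeq2 1.42.0, no filter, limma 3.58.1 on log2(FPKM + 1) and log2(FPKM + 0.1), a replicate block, near-identical copies summed, and each sample left out in turn. The 9 genes and all lists were chosen with earlier results of these data known. Named besides the 9 were listed complement genes with an adjusted p of at most 0.05 or a mean FPKM of at least 10, the listed transcription factors, and the 5 tested genes most like C3. Further listed genes named beside them, such as Cpn2 and C1qa, were chosen after their values were seen. The results of some listed genes are not reported here.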

Additional observations from a re-analysis of the deposited data

How the results depend on the processing

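Serping1 was called at the study's thresholds in all 13 alternatives, with log2 fold changes of 2.40, on log2(FPKM + 1), to 3.88 and adjusted p-values up to 4.4e-04. The number of the 9 genes at an adjusted p of at most 0.05 was 2 to 4, with C3 lost without control 2 or control 3 and Cd59a gained with limma and with copies summed. The number of other complement genes called at the study's thresholds was 1 to 2 with each sample left out, and 1 without control 2 or control 3, where Cpn1 was called and Clu was not. Signs turned for genes near 0: Cd55 was at -0.0028 with upper-quartile scaling and at -0.083 to 0.135 with each sample left out (-0.066 without control 1, -0.083 without mutant 1, -0.040 without mutant 2), Susd4 at -0.080 to 0.022, Itgam at -0.19 to 0.29 and Irf1 at -0.073 to 0.181. The replicate numbers do not pair the samples (correlations of same-numbered samples 0.019, 0.048 and -0.046). With the replicate block 1 of the 9 genes was called and 3 passed 0.05, as without it, and of the other complement genes C1qb was lost (adjusted p = 0.102). Summing C1ra with C1rb was not run, as C1rb was not analysed here. At this depth C4b and 25 other listed genes were too low to test.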

Other observations

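Itgam, which encodes the αM chain of complement receptor 3, was listed at 65.3 ± 1.7 FPKM in the controls and 70.1 ± 22.4 in the mutants (SD, n = 3 each), among the higher levels of the wider complement list. Its obligate partner Itgb2 had 1, 1 and 1 counts in the controls and 7, 2 and 4 in the mutants. Of the Itgam exon bases, 68.7% overlap the same-strand gene Gm49368, and 66.3% of its 50-base windows also occur there, so reads of these models cannot be told apart and the Itgam values are uncertain. The log2 fold change of Itgam was 0.10 (standard error, SE, 0.189, adjusted p = 0.769 from edgeR), with a sign that turned without mutant 1.

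C5ar2, for a receptor of C5a, had an FPKM of 1.24, 0.89 and 0.96 in the controls and of 1.70, 1.39 and 1.38 in the mutants, without overlap. Its log2 fold change was 0.54 (SE 0.184, adjusted p = 0.084 from edgeR). Colec12, a scavenger receptor of the collectin family that can start complement, was lower in each mutant than in each control, at 0.66, 0.49 and 0.54 against 0.45, 0.39 and 0.37 FPKM (log2 fold change -0.47, SE 0.241, adjusted p = 0.239 from edgeR). Both were chosen after their values were seen.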
